A study of Mus musculus with 12 samples.

Results

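The fatty acid and triglyceride synthesis genes are the 37 genes whose products turn citrate and acetate into acetyl-CoA and supply NADPH, build fatty acids, lengthen and desaturate them, and join them to glycerol, together with 4 regulators of these enzymes. They were chosen by their roles in the pathway, with earlier results of these data known, and each matched 1 of the 55401 rows of the count table. Of the 37, 34 had enough reads to be tested. In the livers of mice that over-expressed Mir483, 7 of the 34 were higher than in control livers (Aacs, Acaca, Fasn, Elovl6, Scd2, Fads1 and Thrsp) and 1 was lower (Elovl3), where 8.41% and 2.73% of all genes tested were higher and lower. The 1 lower member is near the share over all genes. None of the 10 tested genes of glycerolipid assembly passed the test in either direction, which in so few genes is also near those shares.

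The data are RNA-seq counts from the livers of 6 iTgMir483 females and 6 control littermates, 15 weeks old, one library per mouse. iTgMir483 mice carry 1 additional copy of Mir483 at the Rosa26 locus under a Tet-off promoter, with the tTA activator expressed from Rosa26 in all tissues, so the transgene is not limited to the liver or to hepatocytes. The mice were on a C57BL/6J background and came from crosses with CMV-Cre females, whose Cre is active from early development. Doxycycline, which silences the transgene, was given in the drinking water during pregnancy and withdrawn at birth, for litters that held both groups. The mice were fed standard chow, and whether they had eaten before collection is not given in the sources used here.

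In the liver, citrate exported from mitochondria is split to acetyl-CoA, which acetyl-CoA carboxylase and fatty acid synthase turn into palmitate. Elongases and desaturases then make longer and unsaturated chains, and acyltransferases, lipins and DGAT enzymes place the chains on a glycerol backbone to give triglyceride. The transcription factors SREBP-1c (from Srebf1) and ChREBP (from Mlxipl) are known to raise the genes of the synthesis steps when insulin and glucose are high.

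Mir483 lies within Igf2 on chromosome 7 and gives the mature microRNAs below, shown because they are what the transgene adds (RefSeq, GRCm38.p6, minus strand, 5′ to 3′). miR-483-3p lies at chr7:142654932-142654952 and miR-483-5p at chr7:142654968-142654989, and capitals mark the seed, bases 2 to 8.
mmu-miR-483-3p: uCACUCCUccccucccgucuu
mmu-miR-483-5p: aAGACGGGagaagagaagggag

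The labels were checked on the Mir483 row. It held 0 counts in each of the 6 control libraries and 318 to 761 counts in the iTgMir483 libraries; these come from a poly(A) protocol and do not measure the mature microRNAs. Library totals ranged from 12244123 to 30431286 counts. Hepatocyte markers were abundant in all 12 livers, with Alb at 93613 to 135525 CPM (counts scaled to a common library size after TMM normalisation) in controls and at 35996 to 107837 in iTgMir483 livers. Of 8 hepatocyte markers 2 were lower in iTgMir483 livers, Cps1 and Ass1. Of 12 macrophage markers 9 were higher, and the summed level of the 12 was 317 to 476 CPM in controls and 496 to 1384 CPM in iTgMir483 livers. Of the other lists, 3 of 6 cholangiocyte markers and 3 of 3 tested neutrophil markers were higher, none of 8 stellate, 8 endothelial, 2 tested lymphocyte and 2 tested intestine markers was called, and skin and exocrine pancreas markers were too low to test. Of all genes tested, 8.41% were higher and 2.73% were lower. The summed adipocyte markers were at most 2.34 CPM, with Lep at 0 in all libraries. The share of each result below that comes from these cells was not tested, and in whole tissue fewer cells of a type and less RNA per cell cannot be told apart.

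Some livers stood apart in the lipogenic genes. Control replicate 1 was the highest control for 12 of the 34 tested members and the lowest for 14. Its Srebf1 level was 217 CPM, where the other 5 controls had 24.6 to 54.7, and its Elovl3, Mlxipl and Mid1ip1 levels were also far above theirs. It also had the lowest Cyp4a14 of the controls (2103 CPM against 10199 to 11885), a fatty acid hydroxylase. Among the iTgMir483 livers, replicate 4 was the highest for 12 members and replicate 1 for 11, while replicate 2 was the lowest for 15. For members whose call or value turned on a replicate 1 library, values without both of them are also given. Where Control replicate 1 was the highest control, leaving it out alone raises the fold change by construction. Calls gained in that way are not independent evidence. Replicate 4 of the iTgMir483 livers also had the highest summed macrophage markers (1384 CPM against 496 to 706 in the other 5).

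A gene was called at a Benjamini-Hochberg adjusted p under 0.05 in edgeR's quasi-likelihood test across all genes and a fold change over 1.5. By this rule 7 of the 34 tested members (20.6%) were higher in iTgMir483 livers, against 8.41% of the 13205 genes tested. One of the 34 (2.94%) was lower, against 2.73% of all genes. The median log2 fold change of the 34 members was 0.26 and that of all genes was 0.01. By the adjusted p alone, 9 members were higher and 2 were lower, against 11.3% and 7.33% of all genes. The groups did not overlap for 2 members in the higher direction, Fads1 and Slc25a1 (5.09% of all genes), and for 1 in the lower direction, Elovl3 (2.83% of all genes). The 24 members outside glycerolipid assembly, with the regulators included, held all 8 calls (29.2% higher and 4.17% lower). Their median log2 fold change was 0.61. The spread between livers, as the coefficient of variation, was larger in the iTgMir483 group for 22 of the 34 members.

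**Figure D1:**
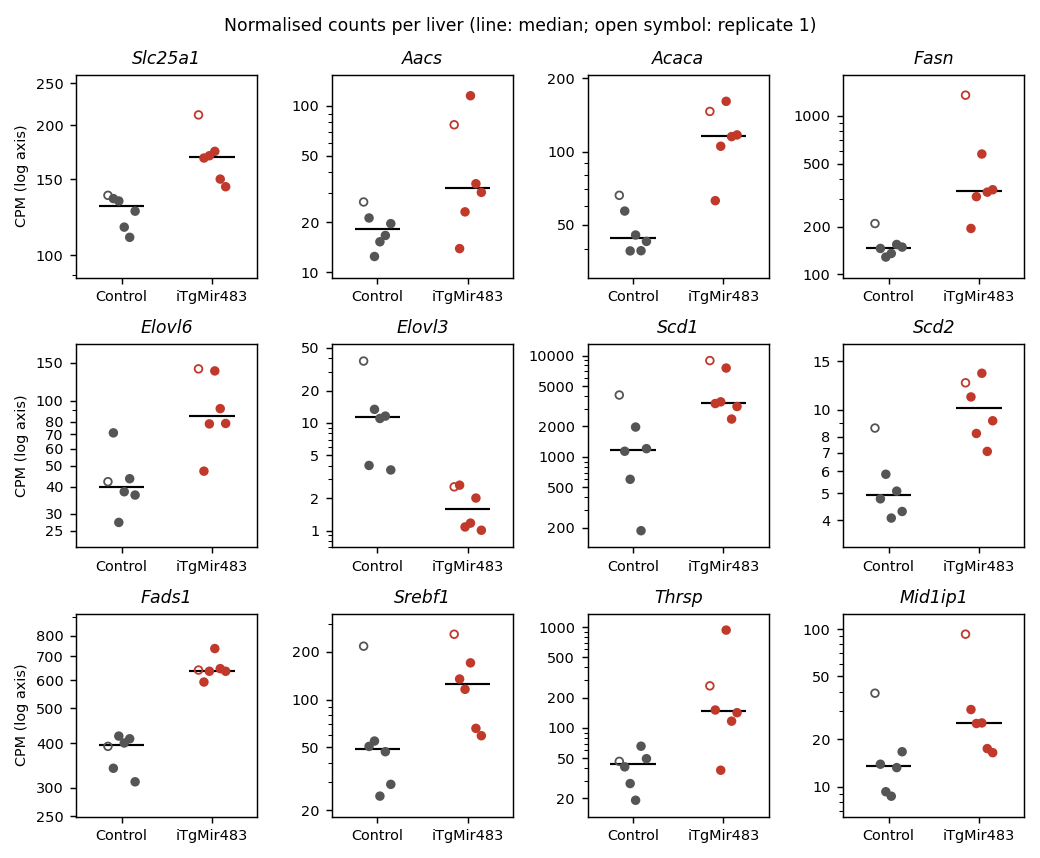
Normalised counts of 12 members in each of the 12 livers, in CPM on a log axis, with 6 Control and 6 iTgMir483 livers per panel. Each symbol is 1 liver, the open symbol is replicate 1 of its group and the line is the median; the groups are apart in Slc25a1, Fads1 and Elovl3 and overlap in the other panels, where Control replicate 1 is the highest control for Aacs, Acaca, Fasn, Scd1, Scd2, Srebf1 and Mid1ip1.

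Of the 5 genes that supply citrate carbon, acetyl-CoA and NADPH, 1 was higher and 4 were not called, and their median log2 fold change was 0.58. Over all genes tested 8.41% were higher, and in so few genes 1 call is near that share. Slc25a1 (ENSMUSG00000003528, chromosome 16, 17925223 to 17928219, GRCm38), the mitochondrial citrate carrier, was the most abundant of them per length in controls, at 58.5 CPM per kb of exon. Its controls ran from 110 to 138 CPM with a median of 130, and the iTgMir483 livers from 144 to 211 with a median of 169. All 6 iTgMir483 livers were thus above all 6 controls, with a small difference (log2 fold change 0.42 ± 0.10 SE, adjusted p = 0.013) that did not reach a fold change of 1.5.

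Acly, ATP citrate lyase, which splits the exported citrate, had a lowest, median and highest level of 87.7, 105 and 156 CPM in controls. In iTgMir483 livers these were 97.8, 148 and 314 CPM. Replicates 1 and 4 of the iTgMir483 group stood above the rest, 3 of its 6 livers exceeded every control, and the difference missed the threshold with all 12 libraries (log2 fold change 0.75 ± 0.27, adjusted p = 0.0639). The threshold was met without Control replicate 1, the highest control (0.87, adjusted p = 0.0409), without iTgMir483 replicate 2 (0.89, adjusted p = 0.0252) and with DESeq2 (0.74, adjusted p = 0.0291), but not without both replicate 1 libraries (0.67, adjusted p = 0.069). Acss2, which activates acetate in the cytosol, had a log2 fold change of 0.58 ± 0.25 (adjusted p = 0.124), and its exons overlap those of Gss on the other strand, so its count is uncertain. Me1, the cytosolic malic enzyme that yields NADPH, had a log2 fold change of -0.21 ± 0.15 (adjusted p = 0.349).

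Aacs, acetoacetyl-CoA synthetase, which returns ketone bodies to lipid synthesis in the cytosol, was the 1 called gene of the supply group. The controls had 12.4 to 26.4 CPM with a median of 18.1, and the iTgMir483 livers 13.8 to 115 with a median of 32.1. The groups overlapped, and the spread within iTgMir483 livers was wide, with 115 and 77.0 CPM in replicates 4 and 1 and at most 34.0 in the other 4. The log2 fold change was 1.40 ± 0.42 (2.63-fold, adjusted p = 0.0322). This was the least stable call among the members under the alternatives run. It was lost when any 1 of Control replicates 2 to 6 or iTgMir483 replicates 1 or 4 was left out, with adjusted p from 0.0505 to 0.0739, and without iTgMir483 replicate 4 the log2 fold change was 0.94. Without both replicate 1 libraries it stayed (1.35, adjusted p = 0.0488), and with limma-voom it was 1.07 with an adjusted p of 0.0933.

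Other enzymes around this step were set beside the members. Of 15 tested genes of the citrate cycle, pentose phosphate pathway and pyruvate or dicarboxylate transport, G6pdx alone was called, at a log2 fold change of 0.75 ± 0.20 (adjusted p = 0.0161), and the list's median was -0.06. Its 1 call is 6.67% of the list, near the 8.41% of all genes that were higher. G6pdx encodes glucose-6-phosphate dehydrogenase, the entry enzyme of the NADPH-yielding pentose phosphate pathway. Pgd, the next dehydrogenase of that pathway, and Tkt, transketolase, passed the adjusted p but not the fold change, at log2 fold changes of 0.46 and 0.51.

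Both of the cytosolic enzymes that build palmitate were higher in iTgMir483 livers. They are 2 of the 3 members of this role (66.7%), against 8.41% of all genes. Acaca (ENSMUSG00000020532, chromosome 11, 84129672 to 84401651), acetyl-CoA carboxylase 1, makes the malonyl-CoA used for synthesis. Its control livers had 39.1 to 66.1 CPM with a median of 44.1, and the iTgMir483 livers 62.9 to 161 with a median of 116. Only iTgMir483 replicate 2 lay within the control range. On the log2 scale the difference was 1.29 ± 0.20 (2.44-fold, adjusted p = 0.0011), and it was the 1 higher member still called when the null hypothesis was a fold change of 1.5. Leaving out any 1 library kept it between 1.18 and 1.42.

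Fasn (ENSMUSG00000025153, chromosome 11, 120805846 to 120824547), fatty acid synthase, had the second largest increase of the members. Control livers had 128 to 209 CPM with a median of 147, and iTgMir483 livers 195 to 1353 with a median of 336. Replicate 1 was the highest library of each group: 209 CPM in controls, where the other 5 had 128 to 154, and 1353 CPM in iTgMir483 livers, where the other 5 had 195 to 575. With all 12 libraries the log2 fold change was 1.75 ± 0.38 (3.37-fold, adjusted p = 0.00649), and without both replicate 1 libraries it was 1.30 (adjusted p = 0.00186). Acacb, acetyl-CoA carboxylase 2, whose malonyl-CoA restrains fatty acid entry into mitochondria, was not called. Its controls had 59.5 to 155 CPM with a median of 130, the iTgMir483 livers 82.0 to 292 with a median of 133, and the log2 fold change was 0.34 with an approximate 95% interval from -0.23 to 0.91. In controls its mean level per length was above that of Acaca (12.6 against 2.83 CPM per kb of exon). In iTgMir483 livers these levels were 16.0 and 6.90 CPM per kb.

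**Figure D2:**
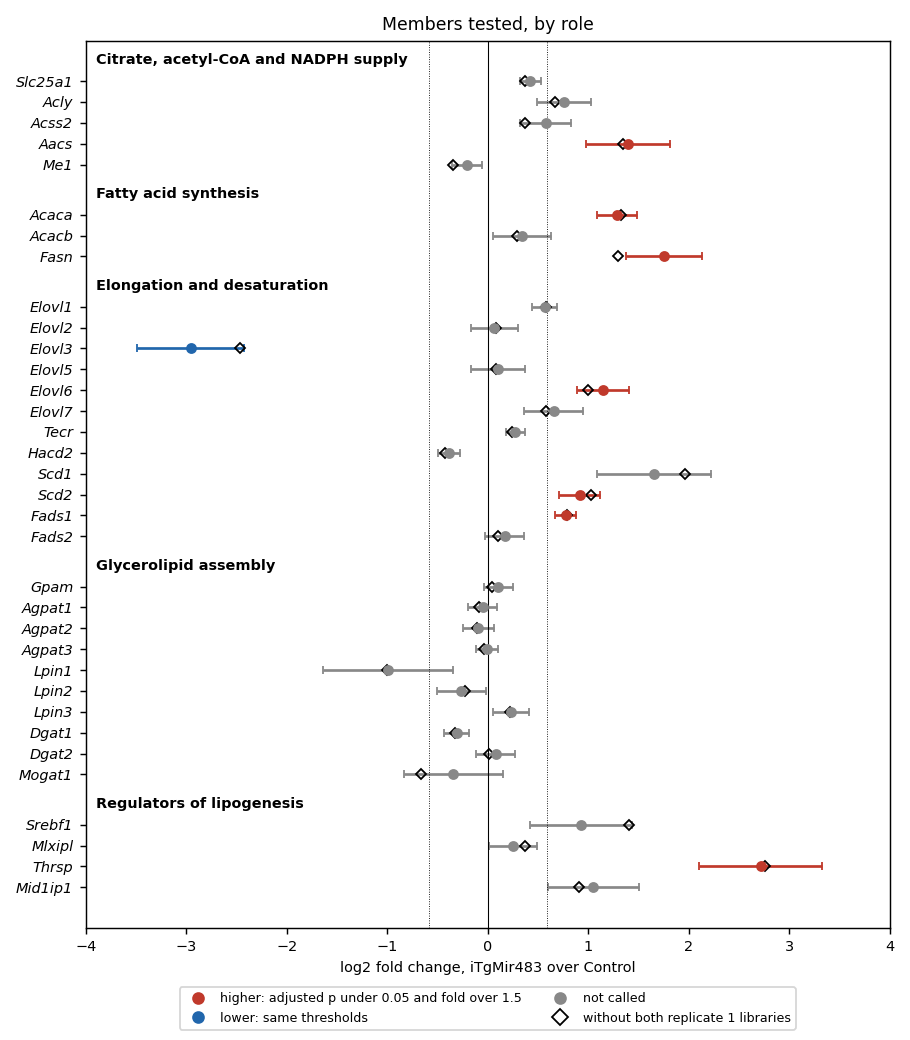
Log2 fold changes of the 34 tested members between 6 iTgMir483 and 6 Control livers, grouped by role, with bars of 1 standard error and dotted lines at a fold change of 1.5. Circles use all 12 libraries (red higher, blue lower, grey not called) and open diamonds leave out both replicate 1 libraries; the circles run from -2.96 for Elovl3 to 2.71 for Thrsp, and the assembly genes other than Lpin1 lie between -0.34 and 0.23.

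The proximal promoters of the members were searched for 4 motifs on both strands, in RefSeq windows from 250 bases before to 50 after each start (GRCm38.p6). The table used held 41 windows for 30 of the 37 members. The CCAAT box (CCAAT) was in 19 of these 41 windows (46.3%) and in 37.4% of 32851 promoter windows of all genes. The GC box (GGGCGG) was in 24 (58.5%, against 35.7% of all) and the E-box CACGTG in 6 (14.6%, against 7.15%). The sterol regulatory element form TCACNCCAC was in 1, of Mlxipl (2.44%, against 1.24%). None of these motifs is contained in another, and a match describes the sequence only.

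Of the 5 higher members with a window (Aacs, Acaca, Fasn, Elovl6 and Thrsp), Fasn and Thrsp held a CCAAT match and none held the other 3 motifs. Both promoters are shown because these genes had the largest increases of the members. Capitals mark CCAAT or its reverse complement ATTGG. Fasn lies on the minus strand at chr11:120824498-120824797, with matches that begin 90, 62 and 59 bases before the start, the last pair sharing bases. Thrsp lies on the minus strand at chr7:97417501-97417800, with matches that begin 79 and 52 bases before the start.
Fasn: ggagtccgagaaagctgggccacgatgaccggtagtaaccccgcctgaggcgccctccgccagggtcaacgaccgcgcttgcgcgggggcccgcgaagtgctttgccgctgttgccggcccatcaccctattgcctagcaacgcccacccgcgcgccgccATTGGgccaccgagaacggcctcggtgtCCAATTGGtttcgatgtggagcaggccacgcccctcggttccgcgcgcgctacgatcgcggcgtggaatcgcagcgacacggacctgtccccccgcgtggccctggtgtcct
Thrsp: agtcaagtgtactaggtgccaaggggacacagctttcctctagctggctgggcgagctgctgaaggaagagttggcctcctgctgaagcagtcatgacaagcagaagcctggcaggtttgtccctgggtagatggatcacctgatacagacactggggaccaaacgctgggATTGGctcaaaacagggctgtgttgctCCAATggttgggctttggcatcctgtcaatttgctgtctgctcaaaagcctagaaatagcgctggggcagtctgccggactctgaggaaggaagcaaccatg

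Among the 12 elongases, desaturases and their partner enzymes, 3 were higher, 1 was lower and 8 were not called, with a median log2 fold change of 0.42. These shares are 25% and 8.33%, against 8.41% and 2.73% of all genes. In so few genes the 1 lower call is near the share over all genes. The calls went in opposite directions within the elongase family. Elovl6 (ENSMUSG00000041220, chromosome 3, 129532355 to 129638495), which lengthens palmitate to stearate, had 27.3 to 70.9 CPM in controls with a median of 40.0. In iTgMir483 livers it had 47.2 to 140 CPM with a median of 85.1. Control replicate 2, at 70.9 CPM, was the 1 control that reached into the iTgMir483 range, and the log2 fold change was 1.15 ± 0.26 (2.21-fold, adjusted p = 0.00826).

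Elovl3 (ENSMUSG00000038754, chromosome 19, 46131897 to 46135694), an elongase of saturated and monounsaturated very long chains, was the 1 lower member and had the largest change of all 34. Its control livers had 3.66 to 37.6 CPM with a median of 11.3, from 40 to 600 counts. The iTgMir483 livers had 1.01 to 2.64 CPM with a median of 1.59, from 13 to 37 counts. Every iTgMir483 liver was below every control, although the controls spread widely with replicate 1 at the top, as the panel of Elovl3 in the plot by liver shows. The log2 fold change was -2.96 ± 0.53 (7.77-fold lower, adjusted p = 0.00242), without Control replicate 1 it was -2.33 (adjusted p = 0.00173), and without both replicate 1 libraries it was -2.47 (adjusted p = 0.00164). Liver Elovl3 is known to differ between the sexes and over the day, and all mice here were female.

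The remaining elongases were not called. Elovl1, which serves saturated very long chains, passed the adjusted p (0.00782) at a log2 fold change of 0.56 ± 0.13, just under the fold threshold. Its control livers had 20.9 to 30.3 CPM and the iTgMir483 livers 28.3 to 43.4. It crossed the threshold when Control replicate 1 or 3 or iTgMir483 replicate 2 or 4 was left out, at 0.60 to 0.63.

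Elovl2 and Elovl5, the elongases of polyunsaturated chains, were far more abundant per length than the other elongases in controls, at 146 and 144 CPM per kb of exon against 9.01 for Elovl1, 6.86 for Elovl3 and 6.70 for Elovl6. Their log2 fold changes were 0.07 (approximate 95% interval -0.39 to 0.52) and 0.10 (-0.43 to 0.63). For Elovl5 the low values were both replicate 1 libraries, at 194 CPM against 459 to 628 in the other controls and at 249 CPM against 552 to 663 in the other iTgMir483 livers. Elovl7 was at 0.31 to 1.08 CPM in all livers (log2 fold change 0.65 ± 0.29, adjusted p = 0.131).

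Of the members for the dehydratase and reductase steps of the elongation cycle, Hacd2 and Tecr, neither was called and the signs differed. Hacd2, a dehydratase, passed the adjusted p (0.0228) at -0.39 ± 0.11, short of the fold threshold, with 44.3 to 55.0 CPM in controls and 30.6 to 47.9 in iTgMir483 livers. Tecr, the reductase, had a log2 fold change of 0.27 ± 0.10 (adjusted p = 0.0648). Of 9 other tested elongation, desaturation and electron transfer enzymes, Hacd4, a further dehydratase, was called, at 1.05 ± 0.22 (adjusted p = 0.00548, from a median of 1.61 CPM in controls to 3.79), and the list's median was 0.09. This 1 call is 11.1% of the list, near the 8.41% of all genes that were higher. Hacd3, a dehydratase of the same list, was more abundant per length than Hacd2 in controls (99.5 against 13.2 CPM per kb of exon). Its log2 fold change was -0.14 (adjusted p = 0.605).

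Scd1, the main stearoyl-CoA desaturase of the liver, which places a double bond in stearate and palmitate, was the most abundant member per length, at 313 CPM per kb of exon in controls and 983 in iTgMir483 livers. Its control levels were uneven: the lowest was 187 CPM, the median 1172 and the highest, in replicate 1, 4084. In iTgMir483 livers the lowest was 2366 CPM, the median 3431 and the highest, again in replicate 1, 8935. Every iTgMir483 liver exceeded 5 of the 6 controls, and 2 exceeded Control replicate 1. The difference missed the threshold with all 12 libraries (log2 fold change 1.65 ± 0.57, 3.14-fold, adjusted p = 0.0553) and passed it without Control replicate 1 (2.23, adjusted p = 0.00949) and without both replicate 1 libraries (1.96, adjusted p = 0.0142). Over all alternatives its adjusted p ranged from 0.00201 to 0.101.

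Scd2, a desaturase that predominates in other tissues and in early life, was called. Its controls had 4.07 to 8.60 CPM with a median of 4.93, and the iTgMir483 livers 7.08 to 13.6 with a median of 10.1. Control replicate 1 was again the highest control, and the other 5 controls, at 4.07 to 5.86, lay below all 6 iTgMir483 livers. The difference was 0.91 ± 0.21 on the log2 scale (1.88-fold, adjusted p = 0.00782). Per length Scd2 stood at 0.997 CPM per kb of exon in controls, far below Scd1, and reads common to both paralogs were handled by the authors' counting. Macrophages are known to express Scd2, and their markers were higher in the same livers, as given above. How much of the Scd2 difference comes from these cells was not tested.

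Fads1 (ENSMUSG00000010663, chromosome 19, 10182888 to 10196877), the delta-5 desaturase of polyunsaturated fatty acids, had the smallest adjusted p of the members. Control livers had 312 to 419 CPM with a median of 396, and iTgMir483 livers 593 to 736 with a median of 638. The groups did not overlap and both were tight, with coefficients of variation of 11.4% and 7.28%. The log2 fold change was 0.77 ± 0.11 (1.71-fold, adjusted p = 0.000476), between 0.72 and 0.80 with any 1 library left out. Fads2, the delta-6 desaturase encoded next to Fads1 on chromosome 19, had 448 to 1048 CPM in controls, 672 to 1158 in iTgMir483 livers, and a log2 fold change of 0.17 (approximate 95% interval -0.22 to 0.55, adjusted p = 0.589).

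**Figure D3:**
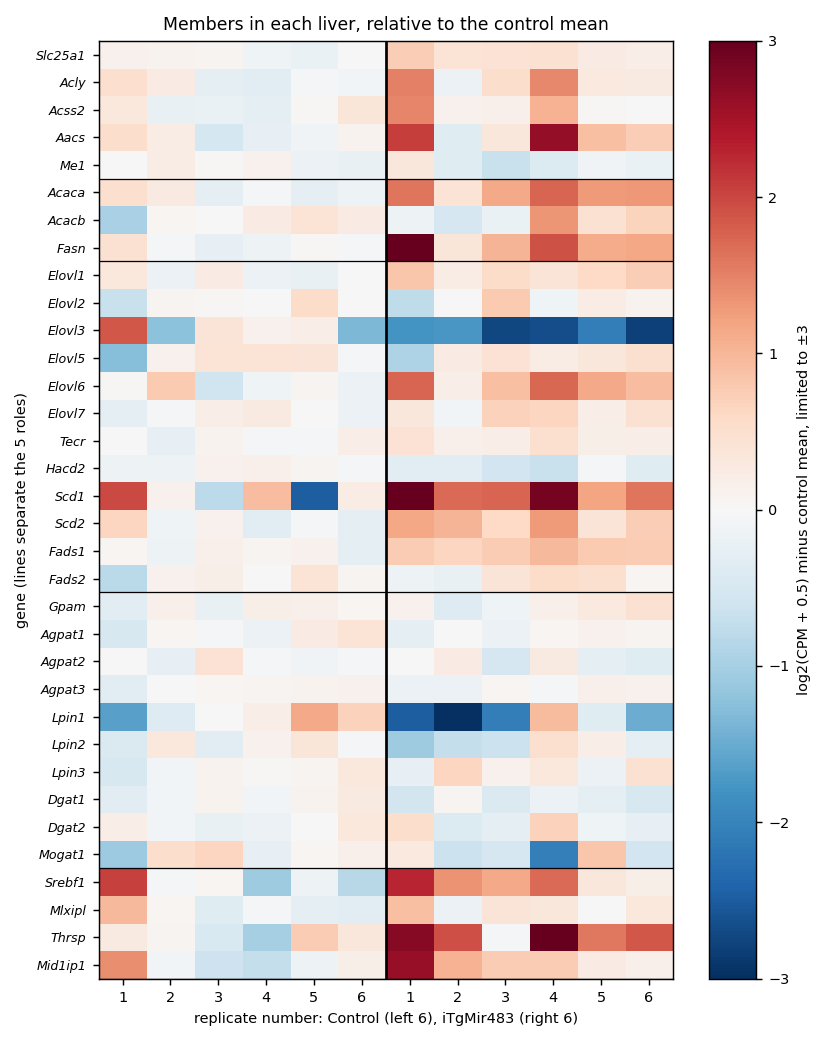
Level of the 34 tested members in each of the 12 livers, as log2(CPM + 0.5) minus the control mean of that gene, with colours limited to ±3 and lines between the 5 roles. The columns are 6 Control and 6 iTgMir483 livers by replicate number; Control replicate 1 is red for Elovl3, Scd1, Srebf1 and Mid1ip1 and blue for Elovl5 and Lpin1, and the block of assembly genes is pale in most livers.

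Of the 13 glycerolipid assembly genes, 10 were tested and none was called, where 8.41% and 2.73% of all genes were higher and lower. In so few genes, the absence of calls is near those shares. Their log2 fold changes ran from -0.99 to 0.23 with a median of -0.07, and 3 of the 10 were positive. Gpam, the mitochondrial acyltransferase that starts the pathway, had 220 to 307 CPM in controls and 208 to 378 in iTgMir483 livers (0.10, approximate 95% interval -0.18 to 0.39). The acyltransferases Agpat1, Agpat2 and Agpat3, which add the next chain, had log2 fold changes of -0.05, -0.10 and -0.01, and the exons of Agpat2 overlap those of Egfl7 on the other strand.

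Dgat2 and Dgat1 catalyse the last step to triglyceride. Dgat2 was the most abundant assembly gene per length in controls, at 134 CPM per kb of exon. It had 353 to 506 CPM in controls with a median of 393 and 306 to 662 in iTgMir483 livers with a median of 359, a log2 fold change of 0.08 (approximate 95% interval -0.30 to 0.46). Dgat1 had 23.3 to 35.7 CPM in controls and 19.9 to 31.0 in iTgMir483 livers (-0.31 ± 0.12, adjusted p = 0.0983). The intervals of Gpam, Agpat1, Agpat2, Agpat3, Dgat1 and Dgat2 lie between -0.55 and 0.46 on the log2 scale.

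Lpin1, a phosphatidate phosphatase that makes diacylglycerol and also acts as a transcriptional co-activator, was the least certain of the assembly genes. Controls had 96.3 to 660 CPM with a median of 324, and iTgMir483 livers 22.1 to 579 with a median of 88.5. Control replicate 1 was the lowest control (228 to 660 in the other 5), and iTgMir483 replicate 4 stood at 579 CPM while the other 5 were at 22.1 to 235. With all libraries the log2 fold change was -0.99 ± 0.64 (adjusted p = 0.303), and without iTgMir483 replicate 4 it was -1.86 (adjusted p = 0.0328). Lpin2 and Lpin3, its paralogs, had log2 fold changes of -0.27 and 0.23.

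The monoacylglycerol acyltransferase Mogat1 was low, at 0.15 to 4.26 CPM over the 12 livers (-0.34 ± 0.50, adjusted p = 0.673). Mogat2, Pnpla3 and Pnpla5 had too few reads to be tested. Mogat2 had 16 counts over the 6 controls and 29 over the 6 iTgMir483 livers. Pnpla3, a lipase and acyltransferase of lipid droplets known as a target of SREBP-1c, had 19 and 64, with at most 6 counts in any control and 9 to 14 in each iTgMir483 liver. Pnpla5, its close paralog, had 0 counts in all controls and 11 in the iTgMir483 group, at most 3 per liver. Against a floor of 3 counts over the controls, and scaled to library totals, that is 4.77-fold higher. The floor covers counting error in the controls only, and that of the 11 counts is not included.

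Of 15 other tested acyl-CoA synthetases and glycerolipid enzymes, Acsl3 was called, at 0.66 ± 0.20 (adjusted p = 0.0307, median 11.1 CPM in controls and 19.1 in iTgMir483 livers). Acsl3 activates fatty acids at lipid droplets. The list's median was -0.20, and its 1 call is 6.67% of the list, near the 8.41% of all genes that were higher. Lclat1 and Plpp1 passed the adjusted p without the fold change, at log2 fold changes of -0.48 and -0.52.

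Among the 4 regulators, Thrsp was higher and the other 3 were not called with all libraries. Over all genes 8.41% were higher, and in so few genes 1 call is near that share. Thrsp (ENSMUSG00000035686, chromosome 7, 97412938 to 97417730), also named Spot 14, is a nuclear and cytosolic protein induced with lipogenesis. Control livers had 19.2 to 65.9 CPM with a median of 43.9, and iTgMir483 livers 38.1 to 933 with a median of 146. Replicate 3 of the iTgMir483 group lay within the control range, and replicate 4, at 933 CPM, stood far above the other 5, which reached at most 261. The log2 fold change was 2.71 ± 0.61 (6.56-fold, adjusted p = 0.00773), and without iTgMir483 replicate 4 it was 1.77 (adjusted p = 0.00853). The call was kept with any 1 library left out, up to 2.94.

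Srebf1, which encodes SREBP-1, was called or not depending on Control replicate 1. Controls had 24.6 to 217 CPM with a median of 48.7, and iTgMir483 livers 59.1 to 258 with a median of 125. All 6 iTgMir483 livers were above the 5 controls other than replicate 1, which had at most 54.7 CPM. With all libraries the log2 fold change was 0.93 ± 0.50 (adjusted p = 0.216). Without Control replicate 1 it was 1.70 (adjusted p = 0.00589), without iTgMir483 replicate 1 0.63 (adjusted p = 0.403), and without both replicate 1 libraries 1.41 (adjusted p = 0.00629). Exons of Srebf1 overlap those of Rai1 on the other strand, and the count does not separate its SREBP-1a and SREBP-1c transcripts.

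Mid1ip1, a partner of Thrsp that promotes the assembly of acetyl-CoA carboxylase into filaments, behaved alike in the replicate 1 libraries. Its level was 39.2 CPM in Control replicate 1, against 8.69 to 16.6 in the other controls. It was 92.8 CPM in iTgMir483 replicate 1, against 16.4 to 30.8 in the other iTgMir483 livers. The log2 fold change was 1.05 ± 0.45 (adjusted p = 0.122) with all libraries. It was 1.498 (adjusted p = 0.0215) without Control replicate 1, 0.46 (adjusted p = 0.369) without iTgMir483 replicate 1 and 0.91 (adjusted p = 0.00894) without both. Mlxipl, which encodes ChREBP and was the most abundant regulator per length in controls (40.5 CPM per kb of exon), had 163 to 415 CPM in controls and 188 to 398 in iTgMir483 livers. Its log2 fold change was 0.25 ± 0.24 (adjusted p = 0.495), and 0.37 (adjusted p = 0.071) without both replicate 1 libraries.

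Genes that share regulators with the members were set beside them. Of 17 enzymes of cholesterol synthesis, which SREBP-2 is known to drive, 14 were higher and none was lower, with a median log2 fold change of 1.15. The share higher was 82.4%, against 8.41% of all genes. The largest were Mvd at 2.36 ± 0.27, Fdps at 2.24 ± 0.39, Nsdhl at 1.94 ± 0.35 and Sqle at 1.91 ± 0.29. In each of these 4 iTgMir483 replicate 1 was the highest liver, for Fdps at 15.3 CPM against 3.70 to 6.06 in the other 5. Without both replicate 1 libraries 13 of the 17 were higher with a median of 0.98, and these 4 had log2 fold changes of 2.27, 1.998, 1.78 and 1.71 and kept the call. In that fit 1248 of 13226 genes were higher. The study named lipid and cholesterol metabolism from these same libraries, so neither set of genes is independent evidence of its direction. It also reported RT-qPCR in livers of younger mice of both sexes. There, genes for production of fatty acids, cholesterol and triglycerides were higher, some of them depending on sex. Those measurements were not compared with the values here. Of 15 genes of SREBP processing and other lipogenic regulators, Pparg was higher (0.67 ± 0.16, adjusted p = 0.0127) and Insig2, which retains SREBPs in the endoplasmic reticulum, was lower (-0.86 ± 0.27, adjusted p = 0.0403), with a list median of 0.06. Each call is 6.67% of the list, against 8.41% of all genes higher and 2.73% lower. Srebf2 itself had a log2 fold change of 0.28 ± 0.14 (adjusted p = 0.179).

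Of 7 glucose-responsive ChREBP targets, Rgs16 was higher (1.29 ± 0.37, adjusted p = 0.0248) and Txnip lower (-0.96 ± 0.31, adjusted p = 0.0424), with a median of 0.16. Of 7 LXR targets outside lipogenesis, the lipid exporter Abcg1 was higher (0.65 ± 0.16, adjusted p = 0.013) and the median was -0.25. Of 12 fasting and insulin response genes none was higher and Cyp4a14 was lower (-2.54 ± 0.59, adjusted p = 0.00926). The fasting-induced Igfbp1 had a log2 fold change of 1.58 ± 0.58 (adjusted p = 0.0691). Without both replicate 1 libraries, 2 of the 12 were higher and 2 were lower, where 1248 of 13226 genes were higher and 448 were lower. The higher ones were Igfbp1 (1.67, adjusted p = 0.0209) and Fgf21 (0.77, adjusted p = 0.00935). The lower ones were Cyp4a14 (-2.58, adjusted p = 0.00544) and Angptl4 (-0.62, adjusted p = 0.0471). Over the 8 lists and with all libraries, 20 of 96 tested genes were higher, 14 of them in cholesterol synthesis. That is 20.8%, against 8.41% of all genes. By list the share was 82.4% in cholesterol synthesis and 0% to 14.3% in the others. In lists of this size 1 call is near the share over all genes.

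**Figure D4:**
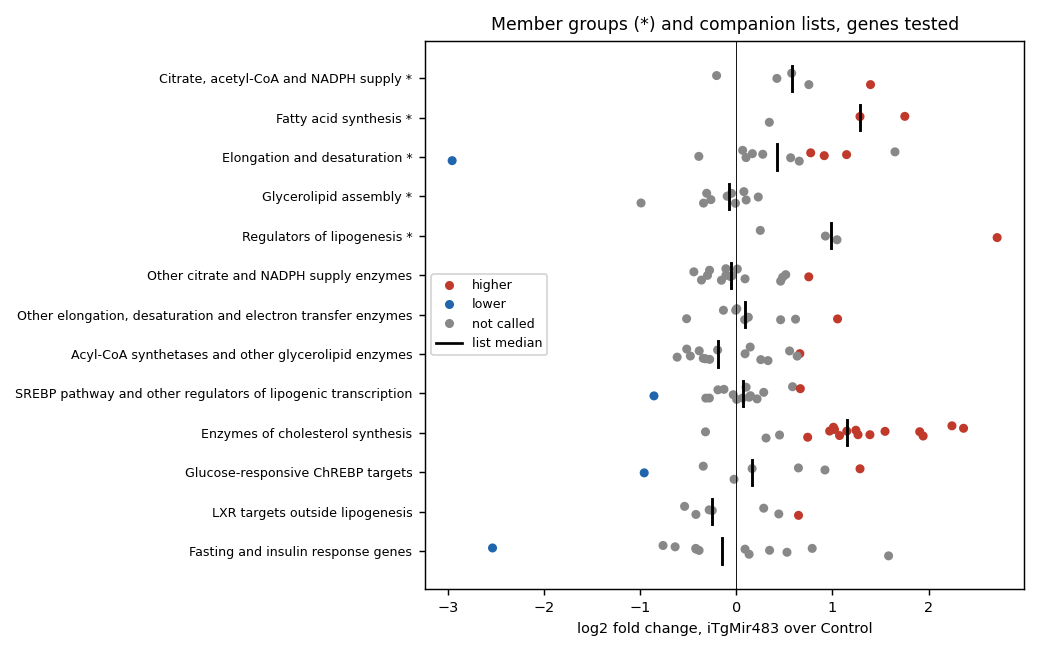
Log2 fold changes of the tested genes in the 5 member groups (marked by an asterisk) and the 8 companion lists, 6 iTgMir483 against 6 Control livers, each point 1 gene and each bar the list's median. Red and blue points passed both thresholds. Cholesterol synthesis has 14 red points of 17, fatty acid synthesis 2 of 3 and glycerolipid assembly 0 of 10, where 8.41% of all genes were higher.

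The 3′ untranslated regions of the members were searched for the 7-base match to each seed (the longest annotated region per gene, GENCODE M21 on GRCm38). The match AGGAGTG to miR-483-3p was present in 5 of 34 tested members (14.7%), against 12.6% of 12098 tested genes with such a region. They were Fasn (chromosome 11, 120806635 to 120806641), Elovl3 (chromosome 19, 46135560 to 46135566), Fads2 (chromosome 19, 10063078 to 10063084), Agpat2 (chromosome 2, 26593315 to 26593321) and Lpin1 (chromosome 12, 16538203 to 16538209). Of these Fasn was higher, Elovl3 was lower and the other 3 were not called. The match CCCGTCT to miR-483-5p was present in Elovl5 (chromosome 9, 77984373 to 77984379) and Lpin1 (chromosome 12, 16538143 to 16538149), or 5.88% of members against 3.26% of all. The median region length was 1099 bases in members and 1164 in all genes, and a match is a description of the sequence.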

How the data were processed

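The authors purified total RNA from livers, made stranded poly(A) libraries, sequenced short read pairs, aligned these with STAR to GRCm38 and deposited raw gene counts based on Ensembl genes. The strand column that was counted is not given in the sources used here, so counts of overlapping genes are uncertain. All 12 libraries carry 1 sequencing pool label. Rows without a gene name and columns without a sample numbered 0. GENCODE M21 supplied positions and symbols, in which all 37 members matched (55141 identifiers had a symbol, 260 did not).

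After filterByExpr and TMM scaling, groups taken from the sample titles were compared without covariates in edgeR 4.0.16 (quasi-likelihood F-test, with limma 3.58.1 in R 4.3.3). Calls required a fold change over 1.5 together with an adjusted p (Benjamini-Hochberg) under 0.05. A standard error is the log2 fold change over the square root of its F, and approximate 95% intervals assume a normal error. The model was tested on simulated data. CPM are counts scaled to a common TMM library size, and levels per kb divide by merged exon length. Counting floors are 3 counts over a group and cover counting error in that group only. How the 6 livers of a group relate by litter is not given. The p-values judge the group difference against the spread between these livers and treat the livers as independent. Any sharing of litters was not accounted for.

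The members and lists were chosen with earlier results of these data known. All 37 members are accounted for. Values by liver are given for called members, members whose call changed under an alternative and the most abundant member of each role, and companion and marker lists are given by counts with up to 4 genes. The alternatives were size factors by RLE, no count filter or at least 10 counts in every sample, limma-voom, DESeq2 1.42.0, the adjusted p alone, a test against the fold threshold, a replicate block, leaving out each library, and leaving out both replicate 1 libraries. No gene set test was run.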

Additional observations from a re-analysis of the deposited data

Results flagged for a closer look

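Dixon's test for a single distant sample was run in each group of 6 for the 34 tested members and the library totals, 70 groups in all, of which about 3.5 would pass by chance; 14 passed the critical ratio, which sets the gap to the nearest sample over the range. Control replicate 1 gave 6 of them, above the other controls for Srebf1 (ratio 0.843), Mlxipl (0.78), Mid1ip1 (0.739), Elovl3 (0.714) and Fasn (0.68), and below them for Agpat3 (0.663, at 314 CPM against 394 to 435). iTgMir483 replicate 1 gave 3, above its group for Mid1ip1 (0.811) and Fasn (0.672) and below it for Elovl5 (0.731).

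iTgMir483 replicate 4 was far above its group for Thrsp (0.751) and for Fads1 (0.626, at 736 CPM against 593 to 646). Control replicate 2 was above the other controls for Elovl6 (0.628), and Control replicate 3 for Agpat2 (0.685, at 280 CPM against 173 to 207). The total counts of Control replicate 4 were above those of the other controls (0.693). What sets these livers apart was not tested.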

How the results depend on the processing

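Of 644 recomputed values of single members under 19 alternatives, 602 kept their direction and call, 21 gained the call, 9 lost it (all Aacs) and 12 turned sign; 21 of the 34 members kept direction and call throughout. With any 1 library left out, 6 to 12 members were higher, 1 to 2 were lower, the members' median log2 fold change ran from 0.22 to 0.32, and 16 to 21 companion genes were higher. The calls over all genes moved as well. Higher genes ran from 911 of 13333 (without Control replicate 4) to 1235 of 13335 (without iTgMir483 replicate 1). Lower genes ran from 279 of 13333 (without Control replicate 4) to 426 of 13315 (without Control replicate 1). The highest count of members, 12, came without Control replicate 1, where 1190 of 13315 genes were higher. There Acly, Elovl1, Scd1, Srebf1 and Mid1ip1 gained the call. Without iTgMir483 replicate 4, 2 members were lower, as Lpin1 gained the call. Testing against a fold change of 1.5 left 1 higher member and 6 higher companion genes, where 167 of 13205 genes were higher. By the adjusted p alone 2 members were lower.

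With the replicate number as a block 2 members were lower (Lpin1 at -1.57, adjusted p = 0.0284) and 9 were higher, with Scd1, Srebf1 and Mid1ip1 gained and Aacs lost (adjusted p = 0.0509). In that fit 1106 of 13205 genes were higher and 424 were lower. Pairing of the numbers was checked by correlating each pair's deviations from the group means across genes. Of 6 pairs, 2 were over 0.1 (0.44 for replicate 1 and 0.167 for replicate 5) and 4 were not. The main test did not treat the numbers as pairs. Whether livers of the same number share a litter or a collection day is not given and was not tested.

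The sign turns were small and none was called: Agpat3 was 0.00046 with at least 10 counts in every sample. With 1 library left out, ranges were -0.073 to 0.023 for Agpat3, -0.12 to 0.19 for Elovl2, -0.070 to 0.25 for Elovl5, -0.14 to 0.037 for Agpat1, -0.18 to 0.0087 for Agpat2 and -0.079 to 0.16 for Dgat2. Without the count filter 10 members were higher, Pnpla3 and Pnpla5 among them, where 1126 of 26863 genes were higher. DESeq2 called 9 members higher, with Acly and Scd1 gained, where 1180 of 13205 genes were higher. Depth limits Pnpla3, Pnpla5, Mogat2, Mogat1 and Elovl7 most. The cause of each change was not tested.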
